A study of Homo sapiens with 12 samples.

Results

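The genes described here are 49 genes of the cell division cycle, chosen by symbol from the 53712 named genes of a raw count table. All 49 were among the 17228 genes with enough counts to be tested. They were sorted by the phase each gene is known for: 23 act at the G1/S transition or in DNA replication, 23 act in G2 and mitosis, and 3 (MYBL2, CHEK1 and WEE1) link the 2 phases. The cells were H9, an established human embryonic stem cell line, in RSeT medium. Cultures were transfected with oligonucleotides at 25 nM and all received the histone deacetylase inhibitor TSA at 5 nM and DZNep, which lowers histone methylation, at 10 nM. The 3 groups of 4 libraries were ASO-Ctr, an antisense control set, ASO-L1, antisense to the RNA of the mobile element LINE1, and SO-L1, the sense counterpart of ASO-L1. All groups also received 0.7 uM trans-ISRIB, 5 uM emricasan and 10 uM Y-27632, which were withdrawn at 24 h, and unsorted cells were harvested at 48 h. The level of LINE1 RNA was not analysed here, and H9 is a single line, so the comparisons describe these cultures only.

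A cell divides in an ordered series of phases. In G1, D-type and E-type cyclins with their kinases release E2F factors from the RB protein, and E2F then drives genes for origin licensing, nucleotide supply and the replication fork. Genes for mitotic entry and the spindle are held back early in the cycle by the DREAM complex and switched on in G2 by MYB-MuvB and FOXM1. CDK1 with cyclins A and B then starts mitosis, which ends when the anaphase-promoting complex, with CDC20, has the cyclins destroyed. Human embryonic stem cells are known for a short G1 and for high levels of many cell cycle genes throughout the cycle. These were bulk libraries, so fewer cells in a phase and less RNA per cell cannot be told apart.

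The promoters of the members were searched for the elements by which these phases are known to be controlled. RefSeq promoters (GRCh38.p14) were matched by symbol for 38 of the 49 members, 18 of each main class and 2 of the link genes, and the 250 bases before each start were searched on both strands. An E2F site was taken as TTTCCCGC, TTTCGCGC, TTTGCCGC or TTTGGCGC, a cell cycle homology region (CHR) as TTTGAA or TTCGAA, and a CCAAT box as CCAAT; none of these words contains another. An E2F word was found in 10 of 18 G1/S genes and in 1 of 18 G2/M genes (CDK1), against 3.40% of the 27305 genes in the promoter table. A CHR word was found in 11 of 18 G2/M genes and in 2 of 18 G1/S genes (MCM6 and RRM1), against 17.2% of all genes. CCAAT was common in both classes, with 14 of 18 G1/S and 16 of 18 G2/M genes against 37.0% of all genes, and CHR and CCAAT occurred together in 10 of 18 G2/M genes, in 2 of 18 G1/S genes and in 6.24% of all genes. These are matches of letters, counted for genes with several start sites if any of their windows held one. Sequences are shown for 4 members called in the comparisons below, 2 of each class, in lower case with the matched words in capitals, 5′ to 3′ on the gene's strand and outside any annotated exon. They are PCNA at chr20:5126627-5126782 (- strand), RRM1 at chr11:4094525-4094684 (+ strand), CDC20 at chr1:43358821-43358954 (+ strand) and KIF11 at chr10:92592970-92593129 (+ strand).
PCNA: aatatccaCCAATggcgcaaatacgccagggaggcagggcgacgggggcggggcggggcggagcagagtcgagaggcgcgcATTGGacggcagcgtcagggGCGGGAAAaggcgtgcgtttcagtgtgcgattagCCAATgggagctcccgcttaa
RRM1: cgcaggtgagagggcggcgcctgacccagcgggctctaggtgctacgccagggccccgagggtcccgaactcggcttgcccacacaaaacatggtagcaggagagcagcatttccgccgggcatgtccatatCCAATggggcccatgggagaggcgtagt
CDC20: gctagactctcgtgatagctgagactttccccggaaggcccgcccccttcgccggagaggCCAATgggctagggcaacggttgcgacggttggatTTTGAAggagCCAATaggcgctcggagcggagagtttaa
KIF11: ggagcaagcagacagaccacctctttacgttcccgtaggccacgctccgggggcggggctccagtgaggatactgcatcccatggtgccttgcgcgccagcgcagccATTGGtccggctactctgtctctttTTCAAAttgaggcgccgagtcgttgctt
The PCNA stretch shows an E2F word (on the opposite strand) and 3 CCAAT words. The CDC20 stretch ends 26 bases before the start site and the PCNA stretch 4 bases before it, while those of RRM1 and KIF11 reach it. In CDC20, a CHR word (TTTGAA) lies 65 bases before the start site, between 2 CCAAT words that lie 100 and 55 bases before it. A further CDC20 CHR word (TTCAAA), 178 bases before the start, lies outside the stretch shown. In KIF11 the CHR (TTCAAA, read on the other strand) lies 28 bases before the start site. RRM1 shows a single CCAAT word, and its CHR word, 199 bases before the start, lies outside the stretch shown.

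Levels are given as CPM, counts scaled to the size of their library after adjustment by edgeR's TMM factor, which ran from 0.9864 to 1.023. The unadjusted library totals ran from 20367989 to 32180891, and mitochondrial genes took 4.74 to 8.81% of them. Every member was well covered except CCNE2, with 27 to 86 counts per library. The next lowest, CDC25C, had 6970 counts over the 12 libraries. The libraries of each group carry the numbers 1 to 4, and nothing says what a number stands for or whether the libraries of a group are separate cultures, so p-values measure the spread between these libraries. Numbers 1 and 2 stood apart from 3 and 4 in all groups. Correlations of their deviations from the group means were between 0.45 and 0.56 for same-numbered libraries and between -0.53 and -0.43 across the 2 sets. The results are therefore also given with the number as a block in the fit where that changes a call, and for some members within each set alone. All 8 pluripotency markers were expressed, and their summed level was 6917 to 7529 CPM in ASO-Ctr, 6725 to 7273 in SO-L1 and 6201 to 6769 in ASO-L1. Against ASO-Ctr, ASO-L1 had 0 of the 8 higher and 4 lower, beside 11.6% and 10.7% of all genes tested.

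In ASO-L1 against ASO-Ctr, 11 of the 49 genes changed, by small amounts. CDC20, PLK1, AURKA, CDK1 and KIF23 of the G2/M class rose, as did the link genes MYBL2 and WEE1. RRM1, for nucleotide supply, PCNA, the sliding clamp, and the spindle motors CENPE and KIF11 fell. The 7 that rose make 14.3% of the members, beside 11.6% of all genes tested that were called higher. The 4 that fell make 8.16%, beside 10.7% of all genes called lower. In this fit, without the block, neither share is far from the background. Calls are from edgeR's quasi-likelihood test, at a Benjamini-Hochberg adjusted p under 0.05 over all genes tested. The largest fold was 1.32, for MYBL2. With the library number as a block, 19 members (38.8%) were called higher and 12 (24.5%) lower, beside 22.5% and 22.5% of all genes. The median log2 fold change over the members was 0.031, and over all genes -0.0010.

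**Figure D1:**
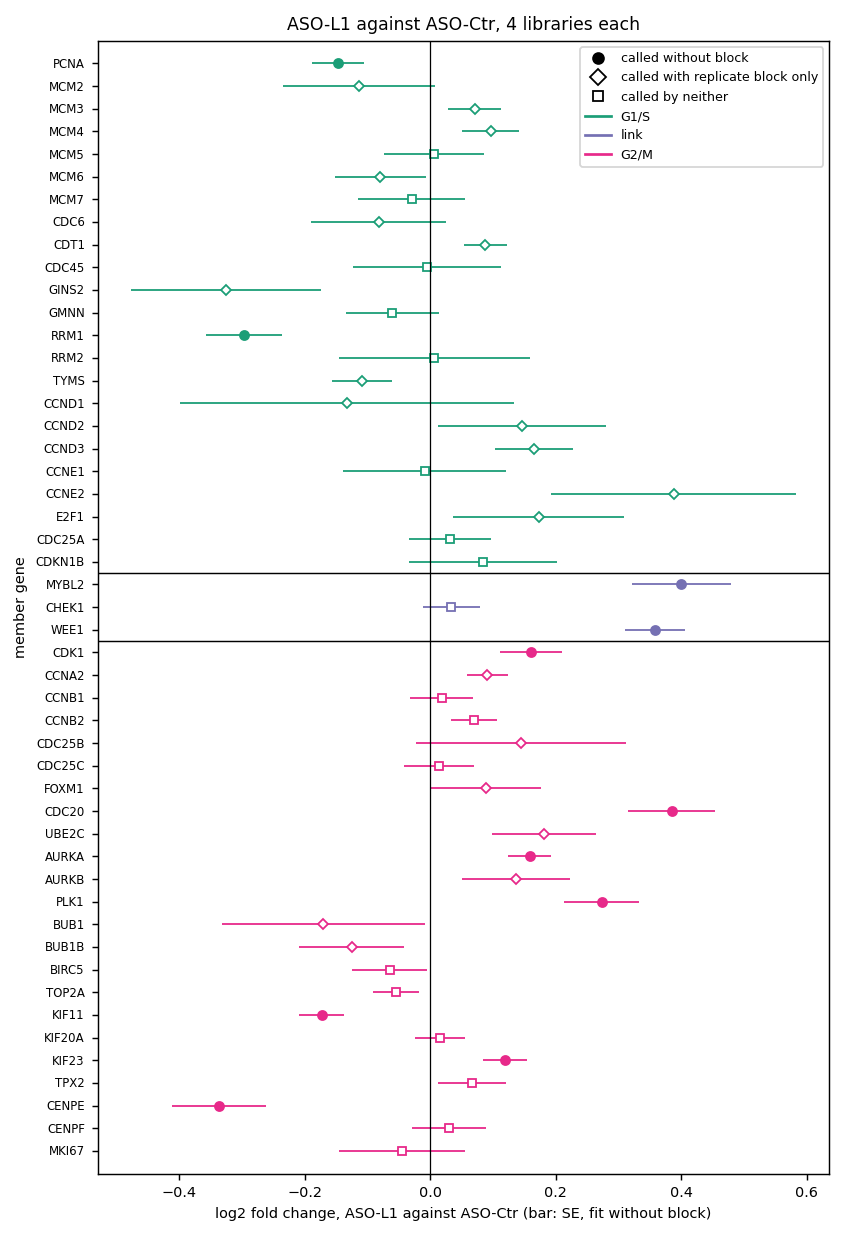
Each row is a member gene; the x axis is its log2 fold change in ASO-L1 against ASO-Ctr, with the SE of the fit without the replicate block as a bar, and colour gives the class (green G1/S, violet link, pink G2/M). The 11 filled circles, called without the block, run from -0.34 for CENPE to 0.40 for MYBL2, and open diamonds mark the 20 members called with the block alone.

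Of the 12 genes for origin licensing and the replication fork, PCNA alone was called in ASO-L1 by the fit without the block. PCNA forms the ring that holds DNA polymerase on its template. It measured 276, 288, 288 and 296 CPM in ASO-Ctr 1 to 4, 281, 279, 302 and 285 in SO-L1 1 to 4, and 255, 260.0, 247 and 275 in ASO-L1 1 to 4. The ASO-L1 libraries lay below all 8 others, with a log2 fold change of -0.15 ± 0.042 (SE, adjusted p = 0.0231) against ASO-Ctr and -0.15 ± 0.042 (SE, adjusted p = 0.0261) against SO-L1. The first call was lost without ASO-Ctr 4 (adjusted p = 0.0687) or ASO-L1 3 (0.0741), and the second without SO-L1 3 (0.0577), ASO-L1 1 (0.0512) or ASO-L1 3 (0.083). The 6 MCM subunits of the replicative helicase ran from -0.11 (MCM2) to 0.10 (MCM4) on the log2 scale, and none passed the test. Beside them, the loading factors CDC6 and CDT1 had log2 fold changes of -0.082 and 0.088, the licensing inhibitor GMNN -0.061, and the helicase cofactors CDC45 and GINS2 -0.0048 and -0.33. GINS2 showed the largest fitted difference of the 12 but also a wide SE, at -0.33 ± 0.15 (SE, adjusted p = 0.153). With the number as a block it was called lower, at -0.33 (adjusted p = 5.24e-08) against ASO-Ctr and -0.28 (adjusted p = 1.31e-06) against SO-L1. GINS2 overlaps GSE1 on the opposite strand, and whether the counting used the strand is not given in the sources used here. MCM3, MCM4 and CDT1 were called higher than in ASO-Ctr with the block alone, and MCM2, MCM6 and CDC6 lower.

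RRM1, the large subunit of ribonucleotide reductase, makes deoxynucleotides together with the small subunit RRM2. RRM1 measured 149, 156, 173 and 167 CPM in ASO-Ctr 1 to 4, 152, 147, 163 and 163 in SO-L1 1 to 4, and 125, 124, 135 and 142 in ASO-L1 1 to 4. All ASO-L1 libraries lay below all others, and the log2 fold change was -0.30 ± 0.061 (SE, adjusted p = 0.00355) against ASO-Ctr and -0.25 ± 0.061 (SE, adjusted p = 0.0107) against SO-L1. Within numbers 1 and 2 it was -0.30 against ASO-Ctr, and within 3 and 4 -0.30. No such difference was seen for RRM2, which measured 188, 191, 251 and 258 CPM in ASO-Ctr 1 to 4, 177, 183, 252 and 242 in SO-L1 1 to 4, and 196, 187, 248 and 262 in ASO-L1 1 to 4. The ASO-L1 and control libraries overlapped, with a log2 fold change of 0.0070 ± 0.15 (SE, adjusted p = 0.983) against ASO-Ctr, while the 6 libraries of numbers 3 and 4 all lay above the 6 of numbers 1 and 2. The third gene of the group, TYMS, which makes thymidylate, had a log2 fold change of -0.11 ± 0.048 (SE, adjusted p = 0.127) and was called lower with the block (-0.11, adjusted p = 0.0194). TYMS overlaps ENOSF1 on the opposite strand.

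None of the 8 G1/S regulators passed the test in ASO-L1 against ASO-Ctr. CCND1, the cyclin that couples growth signals to CDK4 and CDK6, is the member that varied most between library numbers. It measured 93.7, 101, 163 and 163 CPM in ASO-Ctr 1 to 4, 87.6, 91.2, 161 and 160.1 in SO-L1 1 to 4, and 90.3, 93.8, 144 and 147 in ASO-L1 1 to 4. Every library of numbers 3 and 4 lay above every library of numbers 1 and 2, whatever the oligo. The fitted change in ASO-L1 was -0.13 ± 0.27 (SE, adjusted p = 0.78), and became a call with the block, at -0.12 (adjusted p = 0.00354). The other D-type cyclins had values above 0, CCND2 at 0.15 ± 0.13 (SE, adjusted p = 0.493) and CCND3 at 0.17 ± 0.062 (SE, adjusted p = 0.0765), and both were called higher with the block (0.15, adjusted p = 0.00153, and 0.16, adjusted p = 0.00999). For E-type cyclins, which start S phase with CDK2, the values were -0.0088 for CCNE1 and 0.39 for the low CCNE2. E2F1, the transcription factor, stood at 0.17, CDC25A, the phosphatase that activates CDK2, at 0.032, and CDKN1B, the CDK inhibitor p27, at 0.084. CCNE2 and E2F1 were called higher with the block alone, and CCNE1, CDC25A and CDKN1B were called by neither fit against ASO-Ctr. CCNE2, with 636 counts in all, overlaps INTS8, with 21969, on the opposite strand, and whether the counting used the strand is not given.

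The rises outside the G2/M class were in 2 link genes. MYBL2 (B-MYB) is an E2F target that later joins the MuvB core and switches on mitotic genes. MYBL2 measured 255, 259.8, 292 and 288 CPM in ASO-Ctr 1 to 4, 239, 256, 298 and 306 in SO-L1 1 to 4, and 351, 339.9, 367 and 388 in ASO-L1 1 to 4. The lowest ASO-L1 library exceeded the highest of the 8 others, and the log2 fold change was 0.40 ± 0.079 (SE, adjusted p = 0.00282) against ASO-Ctr and 0.40 ± 0.079 (SE, adjusted p = 0.00343) against SO-L1. WEE1 is the kinase that holds CDK1 inactive until mitosis. WEE1 measured 119, 111, 126 and 123 CPM in ASO-Ctr 1 to 4, 118, 111, 117 and 119.8 in SO-L1 1 to 4, and 162, 155, 147 and 149.5 in ASO-L1 1 to 4. Here too the ASO-L1 libraries stood above all others, at 0.36 ± 0.048 (SE, adjusted p = 0.000178) against ASO-Ctr and 0.40 ± 0.048 (SE, adjusted p = 9.82e-05) against SO-L1. Numbers 1 and 2 alone gave a rise of 0.47 against ASO-Ctr, and 3 and 4 alone one of 0.25. WEE1 was the single member whose change differed between the sets of numbers, by -0.21 ± 0.058 (SE, adjusted p = 0.0466 in edgeR's test of the interaction), beside 1.04% of all genes. That call was lost with other scalings, and when any 1 of 9 libraries was left out (numbers 2, 3 and 4 of ASO-Ctr and of ASO-L1, and 1, 2 and 3 of SO-L1). CHEK1, the checkpoint kinase that acts on WEE1 and the CDC25 phosphatases, had a log2 fold change of 0.034 ± 0.045 (SE, adjusted p = 0.653). CHEK1, with 35562 counts in all, overlaps STT3A, with 55736, on the same strand.

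CDK1, the kinase of mitotic entry, measured 102, 99.6, 98.3 and 99.1 CPM in ASO-Ctr 1 to 4, 111, 104, 99.6 and 95.7 in SO-L1 1 to 4, and 118, 108, 110.0 and 109.6 in ASO-L1 1 to 4. Its ASO-L1 libraries lay above all ASO-Ctr libraries but overlapped SO-L1, where SO-L1 1 was highest. The log2 fold change was 0.16 ± 0.049 (SE, adjusted p = 0.0333) against ASO-Ctr and 0.12 ± 0.049 (SE, adjusted p = 0.117) against SO-L1. The first call was lost when any 1 of 9 libraries was left out (each ASO-Ctr library, each ASO-L1 library and SO-L1 3, adjusted p between 0.0522 and 0.135), and the second was made with the block (0.12, adjusted p = 0.00493). CCNA2, cyclin A, partners CDK2 in S phase and CDK1 in G2. CCNA2 measured 235, 234, 238 and 239.5 CPM in ASO-Ctr 1 to 4, 235, 229, 228 and 229 in SO-L1 1 to 4, and 263, 245, 247 and 254 in ASO-L1 1 to 4. The ASO-L1 libraries again stood above all others, but the rise passed the test against SO-L1, at 0.13 ± 0.033 (SE, adjusted p = 0.0125), and missed it against ASO-Ctr, at 0.091 ± 0.033 (SE, adjusted p = 0.0645), where the block called it (0.090, adjusted p = 0.00999). The call against SO-L1 was lost without ASO-L1 1 (adjusted p = 0.053), and CCNA2 overlaps EXOSC9 on the opposite strand. The B-type cyclins CCNB1 and CCNB2 had log2 fold changes of 0.018 and 0.070 against ASO-Ctr and were called by neither fit. CDC25B, a phosphatase that activates CDK1, measured 58.1, 62.0, 42.4 and 42.1 CPM in ASO-Ctr 1 to 4, 59.3, 60.9, 45.9 and 46.1 in SO-L1 1 to 4, and 64.7, 68.4, 45.0 and 48.0 in ASO-L1 1 to 4. It was lower in all 6 libraries of numbers 3 and 4, and the ASO-L1 and ASO-Ctr libraries overlapped (0.14 ± 0.17, SE, adjusted p = 0.602). Within each of the 4 numbers ASO-L1 was above ASO-Ctr, and with the block CDC25B was called higher (0.14, adjusted p = 0.00359), though not against SO-L1 (0.083, adjusted p = 0.0918). Its relative CDC25C stood at 0.014, and FOXM1, the G2/M transcription factor, at 0.088, called higher with the block alone (0.090, adjusted p = 0.0239). FOXM1 overlaps ITFG2 and CDC25C overlaps FAM53C, each on the opposite strand.

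CDC20, which activates the anaphase-promoting complex at the end of metaphase, had the largest rise of the G2/M class. CDC20 measured 186, 194, 204 and 201 CPM in ASO-Ctr 1 to 4, 176, 178, 214 and 208 in SO-L1 1 to 4, and 253, 236, 263 and 274 in ASO-L1 1 to 4. No ASO-L1 library overlapped the others, and the log2 fold change was 0.39 ± 0.069 (SE, adjusted p = 0.00151) against ASO-Ctr and 0.40 ± 0.069 (SE, adjusted p = 0.00133) against SO-L1. In the 2 sets of numbers it was 0.37 and 0.40. A processed copy, CDC20P1, holds counts equal to 3.54% of those of CDC20 and was itself higher in ASO-L1, at 0.54 (adjusted p = 0.00174), and how reads that match both were counted is not given in the sources used here. UBE2C, the ubiquitin enzyme that works with the same complex, stood at 0.18 ± 0.083 (SE, adjusted p = 0.145) and was called higher with the block, at 0.18 (adjusted p = 1.95e-05).

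Among the mitotic kinases and the spindle checkpoint, 2 kinases rose. PLK1, polo-like kinase, acts at mitotic entry, at the spindle and in cytokinesis. PLK1 measured 190.5, 195, 199.9 and 207 CPM in ASO-Ctr 1 to 4, 179.6, 190.1, 213 and 213 in SO-L1 1 to 4, and 228, 228, 250.1 and 253 in ASO-L1 1 to 4. The ASO-L1 libraries lay above the 8 others, and the log2 fold change was 0.27 ± 0.060 (SE, adjusted p = 0.00547) against ASO-Ctr and 0.27 ± 0.060 (SE, adjusted p = 0.00692) against SO-L1. AURKA, Aurora A, matures centrosomes and activates PLK1. AURKA measured 113, 118, 116 and 118 CPM in ASO-Ctr 1 to 4, 119.8, 113, 117 and 116 in SO-L1 1 to 4, and 128, 129, 129 and 133 in ASO-L1 1 to 4. All 4 ASO-L1 libraries exceeded the 8 others, by 0.16 ± 0.035 (SE, adjusted p = 0.00507) against ASO-Ctr and 0.16 ± 0.035 (SE, adjusted p = 0.00552) against SO-L1. AURKB and BIRC5 (survivin), subunits of the chromosomal passenger complex, stood at 0.14 and -0.064, of which AURKB was called with the block (0.14, adjusted p = 0.000683). BUB1, a checkpoint kinase at the kinetochore, measured 331, 331, 228 and 238 CPM in ASO-Ctr 1 to 4, 321, 324, 247 and 236 in SO-L1 1 to 4, and 289.9, 287, 202 and 223 in ASO-L1 1 to 4. It was lower in every library of numbers 3 and 4, and in each of the 4 numbers ASO-L1 was lowest. Without the block the change was -0.17 ± 0.16 (SE, adjusted p = 0.514) against ASO-Ctr, and with it -0.17 (adjusted p = 4.13e-05). BUB1B (BUBR1), of the same checkpoint, stood at -0.12, with -0.12 (adjusted p = 0.00142) under the block.

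The spindle and kinetochore genes went in both directions. CENPE, the kinetochore motor that brings chromosomes to the metaphase plate, measured 66.4, 73.0, 78.7 and 81.3 CPM in ASO-Ctr 1 to 4, 72.6, 71.1, 76.8 and 72.0 in SO-L1 1 to 4, and 54.6, 54.0, 62.9 and 65.6 in ASO-L1 1 to 4. All ASO-L1 libraries were below all others, at -0.34 ± 0.075 (SE, adjusted p = 0.00588) against ASO-Ctr and -0.30 ± 0.075 (SE, adjusted p = 0.012) against SO-L1. KIF11 (Eg5), the motor that pushes the spindle poles apart, measured 151, 158, 149 and 153 CPM in ASO-Ctr 1 to 4, 156, 150.3, 150.4 and 145 in SO-L1 1 to 4, and 136, 133, 135 and 138 in ASO-L1 1 to 4. It too was lower in ASO-L1 without overlap, at -0.17 ± 0.035 (SE, adjusted p = 0.00347) and -0.15 ± 0.035 (SE, adjusted p = 0.00899). KIF23, a motor of the central spindle needed for cytokinesis, was higher. KIF23 measured 103, 102, 99.4 and 104 CPM in ASO-Ctr 1 to 4, 99.7, 103, 104 and 99.7 in SO-L1 1 to 4, and 114, 112, 109 and 109 in ASO-L1 1 to 4. The ASO-L1 libraries lay above the others at 0.12 ± 0.035 (SE, adjusted p = 0.0266) against ASO-Ctr and 0.13 ± 0.035 (SE, adjusted p = 0.0181) against SO-L1. The first KIF23 call was lost without ASO-Ctr 2 (adjusted p = 0.0593), ASO-Ctr 3 (0.103), ASO-L1 1 (0.106) or ASO-L1 2 (0.0861), in numbers 3 and 4 alone (0.10, adjusted p = 0.0565) and with the 2 compared groups fitted alone (0.11, adjusted p = 0.0681). The second was lost without SO-L1 4 (0.0519), ASO-L1 1 (0.0742) or ASO-L1 2 (0.0612). The other 5, the cytokinesis motor KIF20A, the spindle assembly factor TPX2, the kinetochore protein CENPF, topoisomerase TOP2A and the proliferation marker MKI67, ran from -0.054 (TOP2A) to 0.067 (TPX2) against ASO-Ctr, and none was called there with or without the block. Against SO-L1, TPX2 was called higher with the block alone (0.099, adjusted p = 0.00497). KIF20A overlaps BRD8 and CDC23 on the opposite strand.

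**Figure D2:**
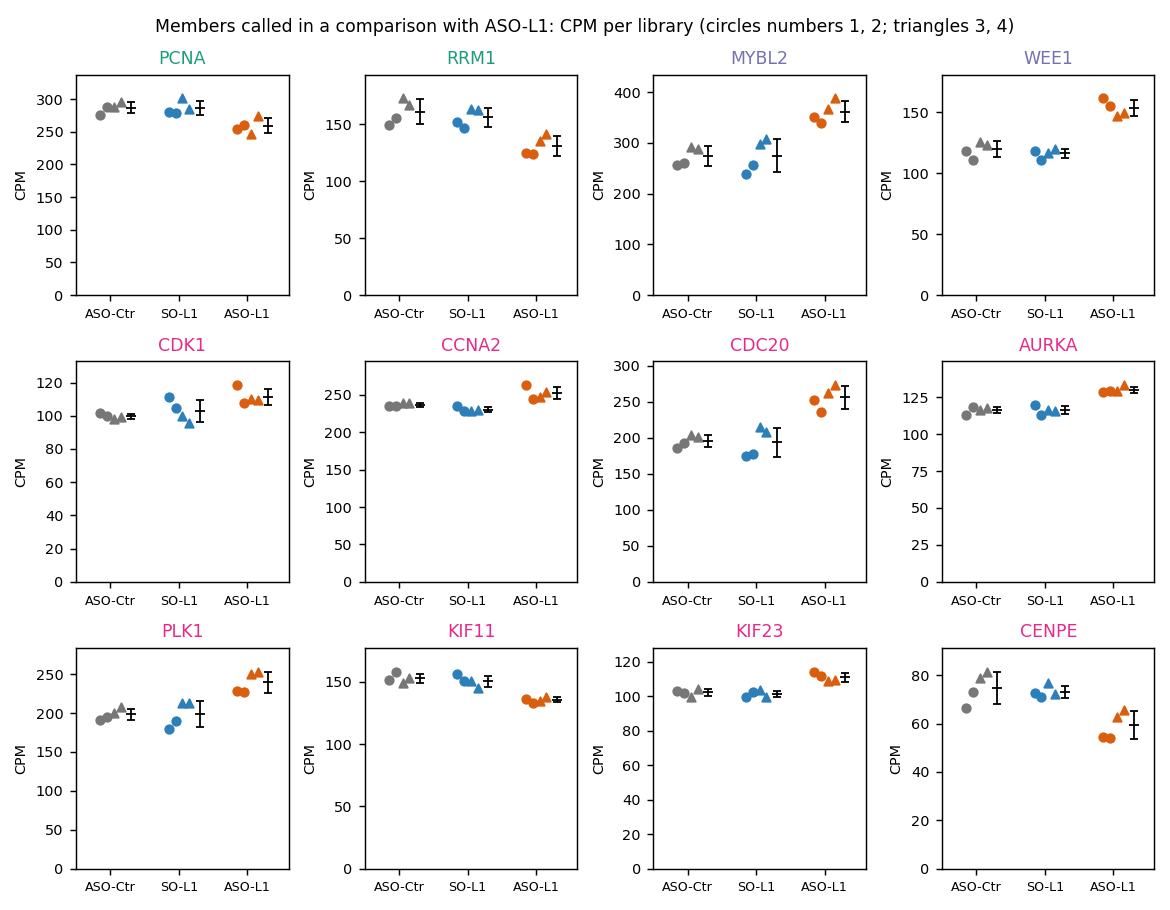
CPM of the 12 members called in a comparison with ASO-L1, by group on the x axis; each point is a library (circles for numbers 1 and 2, triangles for 3 and 4), and the black bar is the mean with its SD over 4 libraries. In all panels but CDK1 the ASO-L1 points lie wholly above or wholly below the 8 other points.

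Against SO-L1, the comparison in which the oligos differ in orientation, 7 members were higher and 4 lower, beside 10.7% and 9.64% of all genes. The names were the same as against ASO-Ctr, except that CCNA2 was called and CDK1 was not. Both comparisons share the ASO-L1 libraries. With the block the counts were 19 (38.8%) and 9 (18.4%), beside 21.6% and 21.7% of all genes. The block added MCM3, MCM4, CCND2, CCND3, CCNE2, E2F1, CDC25A, CDK1, FOXM1, UBE2C, AURKB and TPX2 as higher and MCM6, GINS2, TYMS, BUB1 and BUB1B as lower. In the authors' deposited table of ASO-L1 against SO-L1, 15 members (30.6%) were called higher and 5 (10.2%) lower at its adjusted p under 0.05. Beside these stand 12.9% and 12.2% of the genes in that table. The authors' deposited table held all 11 members called here and also MCM3, MCM4, CCND2, CCNE2, CDK1, FOXM1, UBE2C and TPX2 as higher and GINS2 as lower. For CDC20 the authors' deposited table gives a log2 fold change of 0.40 (adjusted p = 5.81e-06), and for GINS2 -0.28 (adjusted p = 0.0127). Members whose ASO-L1 libraries did not overlap the ASO-Ctr libraries were 11 higher and 4 lower, beside 13.3% and 12.2% of all genes, and against SO-L1 they were 9 and 5, beside 12.7% and 11.5%.

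SO-L1 against ASO-Ctr showed no called member. In this comparison of the control oligos, 0 of 49 genes were higher and 0 lower, beside 0% and 0.0290% of all genes. DESeq2 (background 0.0406% and 0.261%), limma-voom (0% and 0.0348%) and edgeR with the block (0.424% and 0.987%) also called 0. At an unadjusted p under 0.05 edgeR gave 0 members as well, beside 241 genes higher and 286 lower of all 17228. The log2 fold changes ran from -0.12 (MKI67, 146 ± 16.8 CPM in ASO-Ctr and 135 ± 17.2 in SO-L1, SD, n = 4) to 0.092 (CDKN1B). No member had groups without overlap, beside 1.04% of all genes higher and 1.26% lower. MYBL2 and CDC20, with the largest rises called without the block in ASO-L1 against ASO-Ctr, stood at 0.0054 and -0.015, and CENPE and RRM1, among those that fell, at -0.034 and -0.046.

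In the fit without the block, the G1/S and G2/M classes differed in their calls in ASO-L1, by counts that were not tested against each other. The spread between library numbers enters the SE of that fit. The median absolute log2 difference between the sets of numbers was 0.22 in G1/S and 0.12 in G2/M. A G1/S gene could thus be harder to call there, and the effect on these counts was not tested. Of the 23 G1/S genes, 0 were higher and 2 lower than in ASO-Ctr, and again 0 and 2 with DESeq2 and with limma-voom. Of the 23 G2/M genes, 5 were higher and 2 lower. These counts make 0% and 8.7% of the G1/S class and 21.7% and 8.7% of the G2/M class, beside 11.6% and 10.7% of all genes. At an unadjusted p under 0.05, 2 G1/S genes were higher and 3 lower, and 7 G2/M genes were higher and 2 lower. Beside these stand 2993 higher and 2815 lower of all 17228 genes. A log2 fold change above 0 was found for 16 of 23 G2/M genes, 11 of 23 G1/S genes and 8592 of all 17228 genes. With the block the counts were 7 and 8 for G1/S (30.4% and 34.8%) and 10 and 4 for G2/M (43.5% and 17.4%), beside 22.5% and 22.5% of all genes. The median log2 fold change was -0.0048 for G1/S and 0.067 for G2/M, a difference of -0.072 that was not tested. Over the 4 same-numbered pairs of libraries the difference of medians was -0.070 ± 0.033 (SD, n = 4), below 0 in each pair. Pairing by number is not established for these libraries, so the values by pair are descriptive. Numbers 1 and 2 alone gave -0.024, and 3 and 4 alone -0.090. Against SO-L1 the medians were 0.0047 and 0.083, and the paired difference was -0.059 ± 0.038. For SO-L1 against ASO-Ctr it was -0.032 ± 0.050, with pairs on both sides of 0. The fitted difference against SO-L1 moved from -0.079 to 0.020 without SO-L1 3, and that against ASO-Ctr ranged from -0.126 (without ASO-L1 3) to -0.023 (without ASO-L1 2). The 3 link genes stood outside both classes, and 2 of them, MYBL2 and WEE1, were called higher. With these 3 counted as G1/S genes, the fitted difference was -0.061 against ASO-Ctr and -0.073 against SO-L1.

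The number of a library went with larger differences than the oligo in many of these genes. In the test of the number, adjusted over all genes, 34 of 49 members differed, or 69.4%, beside 45.7% of all genes. Of these, 27 were higher on average in numbers 3 and 4 (23.0% of all genes) and 7 lower (22.7%). The test takes any difference among the 4 numbers, so a called member need not differ between the sets. In the G1/S class 16 of 23 were higher and 2 lower, with a median of 0.19 on the log2 scale between the sets, against 10 higher and 5 lower of 23 in G2/M with a median of 0.0099, and 0.0067 over all genes. All 9 licensing and fork genes that differed were higher in numbers 3 and 4, among them GINS2 (0.42, adjusted p = 3.67e-11), MCM2 (0.33, adjusted p = 2.44e-10) and CDC6 (0.30, adjusted p = 3.77e-10). CCND1 differed most, by 0.75 (adjusted p = 5.31e-20), or 1.68-fold, and RRM2 by 0.43 (adjusted p = 6.6e-15). Lower in numbers 3 and 4 were CDC25B (-0.47, adjusted p = 6.9e-13), BUB1 (-0.45, adjusted p = 3.26e-15), CCND2 (-0.36, adjusted p = 2.85e-10), CDKN1B (-0.31, adjusted p = 4.63e-09) and BUB1B (-0.21, adjusted p = 9.32e-08). CDK1 (-0.071, adjusted p = 0.0415) and CENPF (-0.0455, adjusted p = 0.0384) were lower on average, but their sets overlapped. The sets did not overlap for 14 members that were higher and 5 that were lower, beside 9.17% and 9.27% of all genes. In 30 of the 49 the difference between the sets exceeded the fitted change in ASO-L1 against ASO-Ctr, as in 8709 of the 17228 genes tested. The difference of the classes themselves was not tested.

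**Figure D3:**
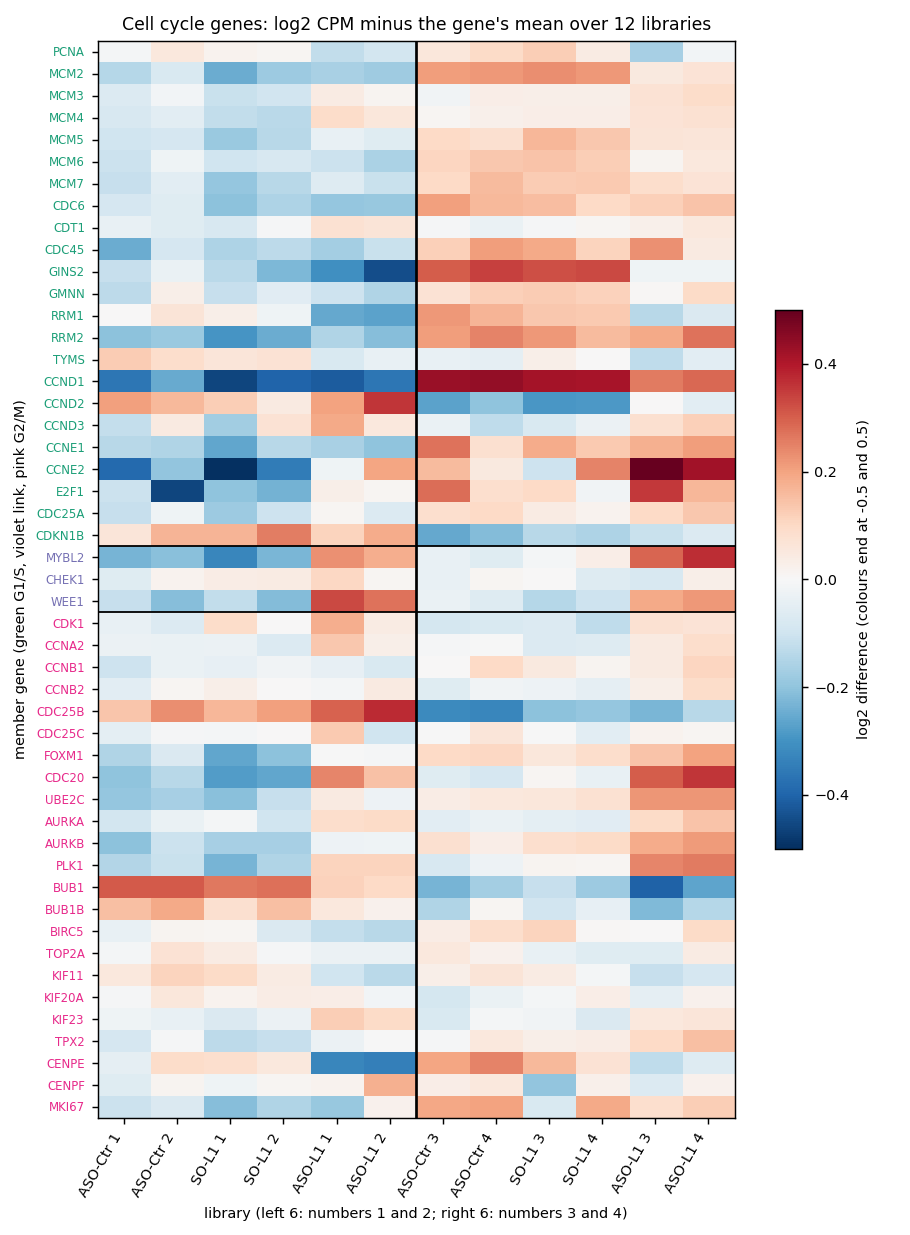
Rows are the 49 members by class and columns the 12 libraries, with numbers 1 and 2 left of the black line and 3 and 4 right of it; colour is log2 CPM minus the gene's mean over all libraries. Most G1/S rows turn from blue to red at the line (16 of 23 were called and higher on average on the right), while MYBL2, WEE1, CDC20 and PLK1 are red in the ASO-L1 columns on both sides.

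Per library, the G1/S median minus the G2/M median of log2 CPM (each gene against its mean over all libraries) was below 0 in all 6 libraries of numbers 1 and 2, from -0.14 (SO-L1 1) to -0.046 (ASO-Ctr 2). In numbers 3 and 4 it was 0.11 and 0.076 in ASO-Ctr, 0.13 and 0.12 in SO-L1, and 0.023 and -0.016 in ASO-L1. The 2 ASO-L1 libraries thus lay below the 4 others of their set, whereas in numbers 1 and 2 the ASO-L1 values, -0.11 and -0.11, fell among those of the controls.

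**Figure D4:**
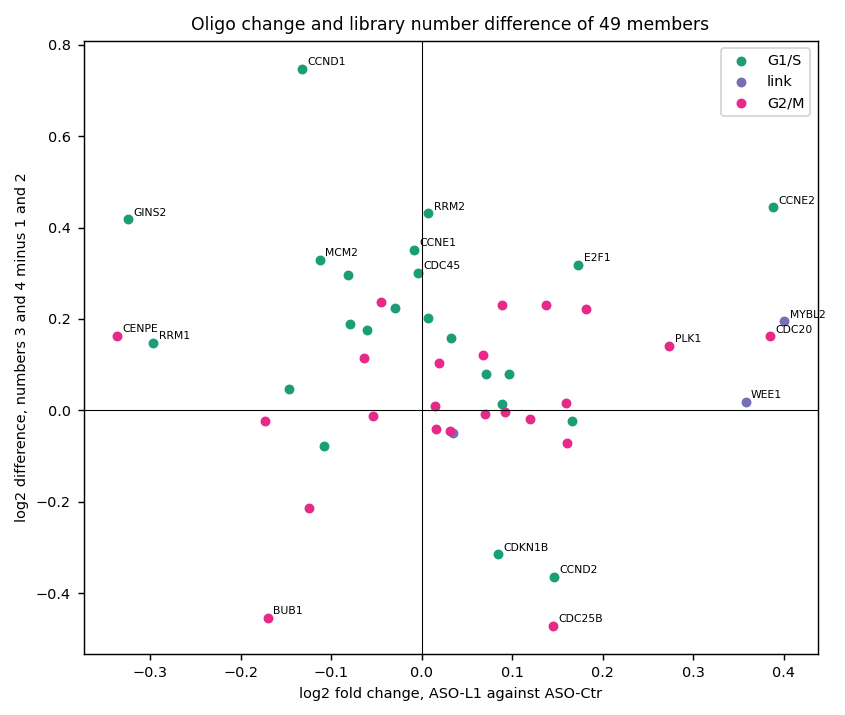
Each point is a member; the x axis is its log2 fold change in ASO-L1 against ASO-Ctr and the y axis its log2 difference between numbers 3 and 4 and numbers 1 and 2, with colour for the class. G1/S points spread mostly along the vertical axis, with CCND1 at the top (0.75), and the largest horizontal values belong to MYBL2, CCNE2, CDC20 and WEE1 on the right and CENPE, GINS2 and RRM1 on the left.

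Some other genes of the same pathways were called in ASO-L1 against ASO-Ctr as well, and the counts of each list stand beside 11.6% of all genes called higher and 10.7% called lower. Of 38 further replication genes, 2 were higher and 6 lower. They include CDC7, the kinase that fires origins, with 94.9 ± 3.0 CPM for ASO-Ctr and 76.9 ± 2.84 for ASO-L1 (SD, n = 4), a log2 fold change of -0.30 (adjusted p = 0.000151). Its activating subunit DBF4 was higher, at 0.19 (adjusted p = 0.00718), and POLA2, a subunit of DNA polymerase alpha, was lower, at -0.43 (adjusted p = 0.000187). In the RB and E2F family 1 of 16 was higher and 3 lower, and RB1 itself, the gatekeeper of E2F, fell, with 34.02 ± 1.89 CPM for ASO-Ctr and 23.6 ± 2.003 for ASO-L1 (SD, n = 4), a log2 fold change of -0.53 (adjusted p = 0.000104). The E2F partner TFDP2 was lower (-0.38, adjusted p = 0.000882) and the MuvB subunit LIN54 higher (0.34, adjusted p = 0.012). Of 15 tested genes among other cyclins, CDK partners and inhibitors (18 in the table), 2 were higher and 0 lower: CKS2, a subunit that binds CDKs, at 0.24 (adjusted p = 0.00197), and CDKN1A, the inhibitor p21, at 0.34 (adjusted p = 0.0444). Kinetochore, spindle and cytokinesis genes gave 6 higher and 4 lower of 44, among them KIF2C, a motor that takes microtubules apart (0.33, adjusted p = 0.000349), ANLN, of the cytokinetic ring (0.18, adjusted p = 0.00394), and, lower, the condensin subunit SMC2 (-0.18, adjusted p = 0.00562) and the motor KIF18A (-0.18, adjusted p = 0.0138). The ubiquitin ligases of the cycle, the anaphase-promoting complex and SCF, gave 0 higher and 3 lower of 19, with CDC16 at -0.51 (adjusted p = 5.08e-06) and ANAPC1 at -0.49 (adjusted p = 9.18e-05), both subunits of the complex that CDC20 activates. Of the genes named from these lists, CDKN1A (0.26, adjusted p = 0.122), ANLN (0.11, adjusted p = 0.0594) and SMC2 (-0.10, adjusted p = 0.0869) were not called against SO-L1. The medians of the 5 lists were -0.045, -0.093, 0.076, -0.0022 and -0.046 on the log2 scale, in the order given, beside -0.0010 over all genes. With the block these counts were 6 and 11, 2 and 7, 6 and 4, 8 and 11, and 3 and 6, in the same order, beside 22.5% and 22.5% of all genes. In the test of the number, 23 of the 38 replication genes were called and higher on average in 3 and 4, and 1 lower, beside 23.0% and 22.7%.

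Markers of other cell types moved with the oligo as well. Of 11 fibroblast and feeder markers, 6 were tested, and ASO-L1 had 3 of them higher and 0 lower than ASO-Ctr, beside 11.6% and 10.7% of all genes. Their summed level was 382.6 to 497 CPM in ASO-Ctr, 377 to 488 in SO-L1 and 637 to 669 in ASO-L1. VIM, an intermediate filament gene, measured 123, 125, 111 and 106 CPM in ASO-Ctr 1 to 4 and 340.3, 328, 244 and 263 in ASO-L1 1 to 4. The collagen gene COL1A2 was lower in ASO-L1 in each number, with 149, 148, 193 and 185 CPM in ASO-Ctr 1 to 4 and 140.0, 138, 157 and 161 in ASO-L1 1 to 4. The defining genes COL3A1, LUM, DCN, PDGFRB and FAP were below 1 CPM in every library. Of 11 trophectoderm and amnion markers, 8 were tested, and 5 were higher and 0 lower. Their sums were 604 to 704 CPM in ASO-Ctr, 614 to 738 in SO-L1 and 936 to 991 in ASO-L1. The keratin gene KRT8 made up most of them, with 424.5, 441, 531 and 515 CPM in ASO-Ctr 1 to 4 and 724.5, 716, 746 and 779 in ASO-L1 1 to 4. TFAP2C was lower in ASO-L1 in each number, with 70.8, 69.4, 52.6 and 53.2 CPM in ASO-Ctr 1 to 4 and 58.6, 58.4, 51.3 and 50.7 in ASO-L1 1 to 4. CDX2, GATA3, TFAP2A and ISL1 were below 1 CPM in every library. The part of these markers in the changes of the cell cycle genes was not tested.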

How the data were processed

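Raw counts per gene symbol, deposited by the authors, were the main data. Per the submitters' processing notes, Trim Galore 0.4.0, TopHat2 2.0.13, featureCounts in Subread 1.5.0 and hg19 were used; whether counting used strand is not given in the sources used here. Libraries were poly(A) and directional per the labels. Log2 fold changes with p-values and adjusted p-values of ASO-L1 against SO-L1 come from the authors' deposited table. A row without a name held at most 3 counts in a library and was left out. CPM is each count over its library's adjusted size, scaled as usual. That size is the library's total over the genes tested, multiplied by its TMM factor (0.9864 to 1.023).

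edgeR 4.0.16 (quasi-likelihood, robust, TMM, filterByExpr with a least count of 10 and total of 15; R 4.3.3) was fitted to all 12 libraries and 17228 genes, without a block. Same-numbered libraries deviated together (r between 0.45 and 0.56 in all 12 pairs), and nearly as much with the other number of their set (0.45 to 0.54). The best match had the same number for 8 of 12 libraries. These values separate the sets of numbers but do not establish pairing by number. The fit with the number as a block is also given. The closest pair of libraries differed by 1.88 in chi-square per degree of freedom, more than sampling noise. Alternatives were DESeq2 1.42.0, limma 3.58.1 (voom), DESeq2 size factors, library size alone, no filter, each set of numbers alone, and each library left out. The fits of ASO-L1 and of the library number were tested on simulated data.

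The members, classes and lists were chosen with earlier results of these data known. Values in every library are given for members called in a comparison and for the 4 with the smallest p of the number test. Others are given by their values or range. From each list of other cell cycle genes at most 2 called genes per direction with the smallest p are named.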

Additional observations from a re-analysis of the deposited data

Results flagged for a closer look

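WEE1 rose less in numbers 3 and 4 than in numbers 1 and 2. The interaction test in edgeR, read for 49 members and adjusted over all genes tested, gave -0.2147 on the log2 scale (adjusted p = 0.0466). That call was lost with other scalings, without the filter on low counts and with most single libraries left out. Against SO-L1 the values within the sets were 0.47 and 0.33.

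In tests for a sample far from the others of its group, 2 of 48 groups stood out, where chance would mark about 1 in 20. CCNA2 measured 234.6 CPM in SO-L1 1, against 228.5 to 229.4 in the other SO-L1 libraries. AURKA measured 133.2 CPM in ASO-L1 4, against 128.3 to 129.0 in the other ASO-L1 libraries.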

How the results depend on the processing

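With the replicate block, 19 members were higher and 12 lower in ASO-L1 against ASO-Ctr (7 and 4 without it), and 19 and 9 against SO-L1 (7 and 4). Numbers 1 and 2 alone gave 14 and 9 against ASO-Ctr, and 15 and 6 against SO-L1. Numbers 3 and 4 alone gave 13 and 9 against ASO-Ctr, and 16 and 9 against SO-L1. The shares of all genes called in each set alone are not given here, so these counts have no background beside them. Without the filter on low counts 2 members were lower against SO-L1. In numbers 1 and 2 alone the class difference against ASO-Ctr was -0.0242. Leaving out single libraries gave class differences of -0.1258 to -0.0225 against ASO-Ctr, -0.1198 to 0.0200 against SO-L1, and -0.0456 to 0.0365 for SO-L1 against ASO-Ctr. The count of members whose change differed between sets was 0 with DESeq2 size factors, with library size alone and without the filter, and 0 to 3 with single libraries left out (3 without ASO-Ctr 1, 2 without ASO-L1 1). The cause was not tested. Of 462 values of single members under the alternatives, 431 stayed called in the same direction and 31 lost the call, 7 of them without the filter (PCNA and KIF23 in both comparisons, CDK1 against ASO-Ctr, and CCNA2 and KIF11 against SO-L1). The 11 calls against ASO-Ctr were also made with DESeq2, limma-voom, DESeq2 size factors and library size alone. Those scalings moved the median over all genes by -0.0046 and 0.0057 on the log2 scale. CCNE2, with 636 counts in all, had an SE of 0.14 with the block, beside 0.033 for MYBL2.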
